A study of Homo sapiens with 6 samples.

Results

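The enzymes and binding proteins of DNA methylation were followed in H69 cells treated for 24 h with trichostatin A (TSA), an inhibitor of histone deacetylases, at 1 µM. The set held the writers DNMT1, DNMT3A and DNMT3B, the DNMT1 cofactor UHRF1, the erasers TET1, TET2 and TET3, and the methyl-CpG readers MBD1 and MBD2, taken by symbol. All 9 were found among the 31814 genes of the expression table, and all 9 were among the 17596 genes past the filter on low values, which asked for a TPM of 1 in at least 3 of the 6 libraries. TPM is transcript abundance scaled to the length of the transcript and to the total of the library. H69 is an established human cell line, grown here in RPMI medium with serum, and polyadenylated RNA was sequenced from 3 vehicle libraries (DMSO, the solvent, without TSA) and 3 TSA libraries. The labels name no genetic change in either group. A sample tag of the treated libraries reads HSA where the design text names TSA, and TSA is used here. The labels do not say that replicates were grown as separate cultures, and the p-values therefore rest on library-to-library spread that could be technical. No tissue of origin is given in the labels. In vehicle the neuroendocrine marker INSM1 stood at 614 ± 77.4 TPM (SD, n = 3), and of 7 markers of bile duct epithelium EPCAM and KRT19, which other epithelia also express, stood at 600.1 ± 61.9 and 208 ± 48.2 TPM and CFTR at 0.0941 ± 0.0516 TPM. The bile duct list summed to 765.9 to 974.6 TPM in vehicle and 325 to 437 TPM in TSA, with 3 of 5 tested markers lower and 2 higher. In TSA INSM1 was at 24.7 ± 4.93 TPM, and of 8 neuroendocrine markers 5 fell and 2 rose, with a summed level of 2262 to 2700 TPM in vehicle and 1217 to 1275 TPM in TSA. Markers of fibroblasts, blood and endothelium, of which 6 of 7 matched, summed to 0.713 to 1.39 TPM in vehicle and 4.97 to 6.94 TPM in TSA, mostly COL1A1, and DCN, COL1A2 and CD3E were at 0 in vehicle. The part of these marker lists in the results was not tested.

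Methyl groups on the cytosine of CpG dinucleotides are copied after replication by DNMT1, which UHRF1 brings to hemimethylated sites, and are placed on new sites by DNMT3A and DNMT3B. The TET dioxygenases oxidise methylcytosine and so start its removal, and MBD1 and MBD2 bind methylated CpG and bring in repressors, among them histone deacetylase complexes. DNA methylation and histone deacetylation often act on the same silent promoters, and DNA methylation itself was not measured here.

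Libraries differed in ways that the groups do not account for. Whole reads recovered from the TPM values, which are lower bounds of the depth, ran from 22533307 to 26148651 per library. Mitochondrial genes held 4.97% to 12.3% of TPM in vehicle and 7.65% to 16.9% in TSA. Genes with the longest transcripts, 6955 nt or more, deviated from their own means by a median of 0.41 and 0.35 (log2) in vehicle libraries 1 and 3 but −0.074 in vehicle library 2, and by 0.17 in TSA library 1 but −0.44 in TSA libraries 2 and 3. The TET transcripts and that of DNMT3A are long, with longest annotated forms of 9288 nt for TET1, 10166 nt for TET2, 11388 nt for TET3 and 9501 nt for DNMT3A. Vehicle libraries 1 and 3 and TSA library 1 are therefore set against each other, and the other 3 libraries likewise, beside the values of these genes. Neither set is fully matched. Long transcripts were lower in TSA within both, at 0.17 against 0.41 and 0.35, and at −0.44 against −0.074.

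Promoter sequences are shown for the 2 members with the greatest fall, the member that rose, and the maintenance pair DNMT1 and UHRF1, so that the CpG content of the genes that handle CpG methylation can be seen. Each is the 250 bases before the most upstream transcription start in the RefSeq table (GRCh38.p14), a build other than the hg19 of the expression table, written 5′ to 3′ on the strand of the gene, with every CpG in capitals.
TET2 (chr4:105145625-105145874, plus strand): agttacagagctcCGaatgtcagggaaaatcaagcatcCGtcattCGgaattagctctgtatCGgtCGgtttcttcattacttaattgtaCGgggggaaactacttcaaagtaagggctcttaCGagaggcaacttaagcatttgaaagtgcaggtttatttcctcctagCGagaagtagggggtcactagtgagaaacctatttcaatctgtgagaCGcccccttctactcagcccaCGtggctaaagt
DNMT3A (chr2:25342591-25342840, minus strand): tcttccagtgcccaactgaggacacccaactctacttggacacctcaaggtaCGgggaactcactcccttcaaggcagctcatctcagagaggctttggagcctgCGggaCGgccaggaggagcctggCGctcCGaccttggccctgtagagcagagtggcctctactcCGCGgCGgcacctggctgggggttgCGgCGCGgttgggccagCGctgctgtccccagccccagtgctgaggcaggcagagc
MBD1 (chr18:50281768-50282017, minus strand): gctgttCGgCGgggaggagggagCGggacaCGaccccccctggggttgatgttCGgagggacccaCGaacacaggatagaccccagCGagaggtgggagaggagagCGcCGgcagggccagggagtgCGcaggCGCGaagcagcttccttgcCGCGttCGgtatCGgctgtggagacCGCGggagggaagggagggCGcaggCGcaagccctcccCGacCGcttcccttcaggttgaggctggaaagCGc
DNMT1 (chr19:10194954-10195203, minus strand): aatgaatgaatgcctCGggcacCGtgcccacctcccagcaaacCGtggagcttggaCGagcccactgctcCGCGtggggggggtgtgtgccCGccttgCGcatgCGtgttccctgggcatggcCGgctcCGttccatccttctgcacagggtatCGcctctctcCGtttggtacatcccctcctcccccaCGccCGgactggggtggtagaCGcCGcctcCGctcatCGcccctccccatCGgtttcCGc
UHRF1 (chr19:4909251-4909500, plus strand): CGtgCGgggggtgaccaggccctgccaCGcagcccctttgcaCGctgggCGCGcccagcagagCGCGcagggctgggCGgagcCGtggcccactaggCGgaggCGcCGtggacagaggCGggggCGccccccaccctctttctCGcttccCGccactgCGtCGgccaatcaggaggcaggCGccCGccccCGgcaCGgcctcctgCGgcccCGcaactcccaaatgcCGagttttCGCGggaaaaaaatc
These stretches held 10 CpG in TET2, 12 in DNMT3A, 23 in MBD1, 21 in DNMT1 and 28 in UHRF1, against a median of 10 over 27305 genes. All 9 members matched the table, and the range over them ran from 3 CpG in DNMT3B to 37 in TET3. Letters of the E2F motif (TTTCCCGC, TTTCGCGC, TTTGCCGC or TTTGGCGC on either strand) were searched in the 300 bases that also take in the first 50 transcribed ones. They occurred in DNMT1 as GCGCGAAA, starting 2 bases before the start, and in UHRF1 as GCGGGAAA, starting 14 bases before it, and in no other member, while 3.34% of all genes held such a match. The E-box CACGTG, which reads alike on both strands, occurred in TET2 and TET3, against 7.41% of all genes. These matches depend on the start chosen: TET2 and TET3 each held an E-box in 1 of 2 annotated start windows, DNMT3A in 2 of 6, and UHRF1 the E2F letters in 2 of 3. A match describes these letters and is no evidence of binding.

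The 9 members as a set were mostly lower in TSA. With limma on log2(TPM + 1), 7 of 9 fell, 1 rose and 1, TET3, did not pass an adjusted p of 0.05. Of all tested genes 62.2% were called, 34.2% lower and 28.0% higher. The median log2 fold change of the members was −0.84, beside −0.095 over all tested genes. The 3 values of a group did not overlap those of the other group in 8 of the 9 members, against 67.0% of the tested genes. Calls in either direction were thus common in these libraries, and the set was small. With the slope of each library against transcript length as a covariate, which was positive in all vehicle and negative in all TSA libraries, 0 members passed with limma (3 were lower and 0 higher at an unadjusted p under 0.05), and slope and treatment cannot be told apart. In that fit the log2 fold change was −2.72 (SE 0.85) for TET2, −1.80 (SE 0.52) for DNMT3A and −0.91 (SE 0.26) for MBD2, and 0.41 (SE 0.52) for MBD1.

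**Figure D1:**
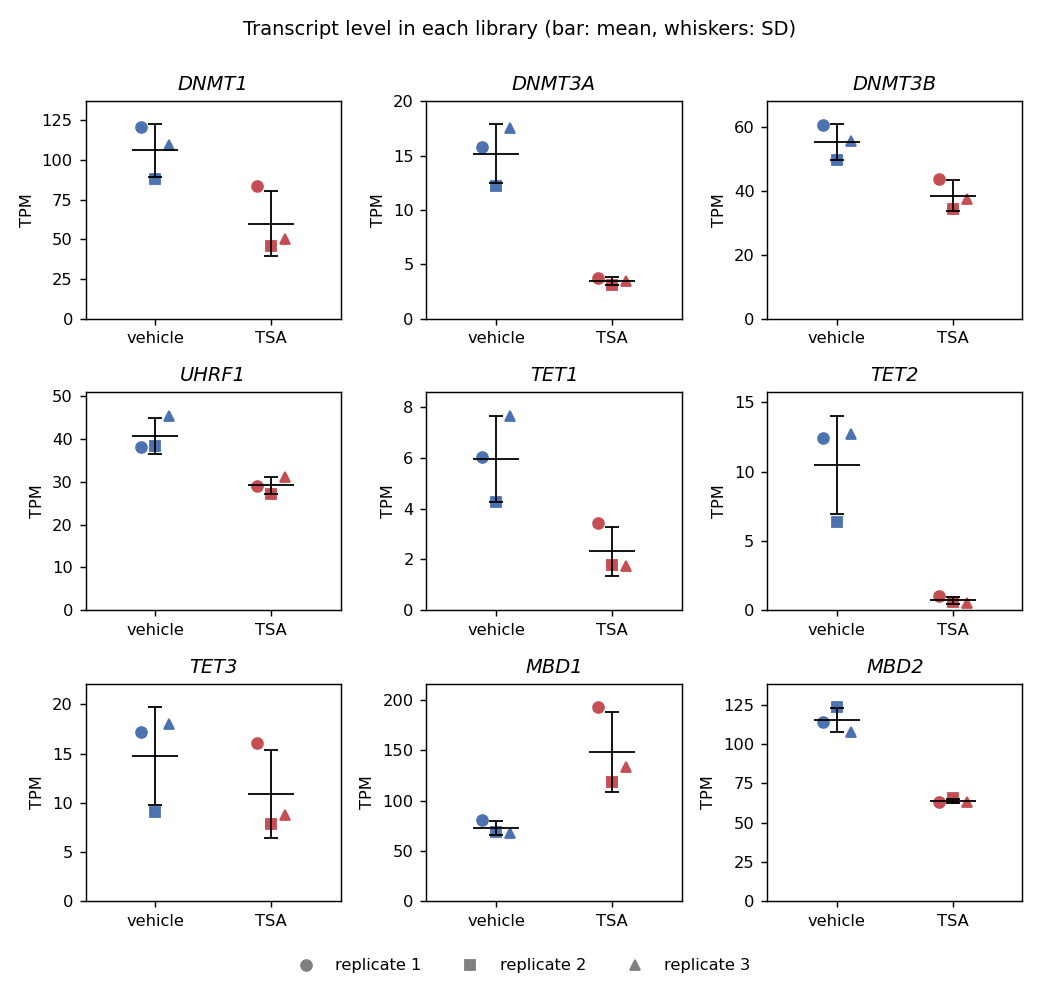
TPM of the 9 genes in each library (blue vehicle, red TSA; circle, square and triangle are replicates 1, 2 and 3), with the group mean as a bar and the SD as whiskers, each panel from 0 on its own axis. Every TSA value lies below every vehicle value for DNMT1, DNMT3A, DNMT3B, UHRF1, TET1, TET2 and MBD2, above for MBD1, and TET3 overlaps.

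DNMT3A, a de novo methyltransferase, showed the strongest change among the writers. Its level was 15.8, 12.2 and 17.5 TPM in vehicle libraries 1 to 3 and 3.77, 3.09 and 3.50 TPM in TSA libraries 1 to 3. All TSA libraries were low and close together. The mean fell from 15.2 ± 2.71 to 3.45 ± 0.343 TPM, a 4.40-fold difference, with a log2 fold change of −1.85 (SE 0.17, adjusted p 0.00013). Behind these values were 530 to 856 recovered reads in vehicle and 159 to 189 in TSA. The log2 difference was −1.89 among the 3 libraries where long transcripts were higher and −1.62 among the other 3, where each set has 1 library in the smaller group and no test.

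DNMT3B, the other de novo enzyme, was more abundant and changed less. Vehicle libraries held 60.7, 49.6 and 55.8 TPM, and TSA libraries 43.8, 34.3 and 37.6 TPM. The groups were apart by a small margin, from 49.6 to 43.8 TPM. The log2 fold change was −0.51 (SE 0.13, adjusted p 0.011), from 55.4 ± 5.55 to 38.6 ± 4.80 TPM. DNMT3B therefore made up a greater part of the summed TPM of both de novo enzymes in TSA. Its share was 79.3%, 80.2% and 76.1% in vehicle and 92.1%, 91.7% and 91.5% in TSA, a rise of 13.2 percentage points without overlap, for which the two-sided exact permutation test gave p = 0.1, the smallest that 3 against 3 allows.

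DNMT1, the maintenance methyltransferase, was the most abundant writer, at 121, 88.0 and 109 TPM in vehicle and 83.5, 45.9 and 50.2 TPM in TSA. TSA library 1 came close to vehicle library 2, and the other TSA libraries were well below. The mean fell from 106 ± 16.6 to 59.9 ± 20.6 TPM (log2 fold change −0.85, SE 0.24, adjusted p 0.020). Without vehicle library 1, vehicle library 3, TSA library 2 or TSA library 3 the call ended, with adjusted p from 0.061 to 0.069 and log2 fold changes from −0.69 to −0.82. The difference was −0.45 among the libraries where long transcripts were higher and −0.86 among the others.

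UHRF1, which recognises hemimethylated CpG and recruits DNMT1, stood at 38.1, 38.4 and 45.5 TPM in vehicle and at 29.1, 27.2 and 31.2 TPM in TSA. All TSA libraries were lower by a modest step. Its mean fell from 40.7 ± 4.19 to 29.2 ± 2.04 TPM (log2 fold change −0.46, SE 0.11, adjusted p 0.0092). The call ended under a median-of-ratios scaling (log2 fold change −0.35, adjusted p 0.052) and under quantile normalization (−0.30, adjusted p 0.055), both of which moved the median of all genes by 0.10. The authors' deposited table gives UHRF1 a log2 fold change of −0.41 with an FDR of 0.069.

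TET2 showed the greatest fall of the 9. Vehicle libraries held 12.4, 6.36 and 12.7 TPM and TSA libraries 0.994, 0.586 and 0.531 TPM. No TSA library reached 1 TPM, although vehicle library 2 was itself low beside the other vehicle libraries. The mean went from 10.5 ± 3.57 to 0.704 ± 0.253 TPM, a 14.9-fold difference in mean TPM. On log2(TPM + 1), which understates the change of low genes, the fold change was −2.71 (SE 0.28, adjusted p 0.00021), and 2.11% of tested genes had a lower value. Recovered reads numbered 1364, 658 and 1480 in vehicle and 119, 72 and 62 in TSA. The log2 difference was −2.76 among the libraries where long transcripts were higher and −2.24 among the others.

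TET1 was the lowest of the erasers in vehicle, at 6.04, 4.25 and 7.65 TPM, and was at 3.44, 1.76 and 1.73 TPM in TSA. Here too TSA library 1 was the highest TSA library and vehicle library 2 the lowest vehicle library, with a narrow gap between them. The mean fell from 5.98 ± 1.70 to 2.31 ± 0.977 TPM (log2 fold change −1.09, SE 0.27, adjusted p 0.012). The log2 difference was −0.81 among the libraries where long transcripts were higher and −0.93 among the others. With trends of transcript length and GC content removed from each library the log2 fold change was −0.57, still past the test (adjusted p 0.014).

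TET3 did not pass the test. Its level was 17.2, 9.07 and 18.04 TPM in vehicle and 16.1, 7.88 and 8.77 TPM in TSA. Vehicle libraries 1 and 3 and TSA library 1 were high, and the other 3 libraries, 1 from vehicle and 2 from TSA, were low, the same division as for long transcripts in general. The log2 fold change was −0.41 with a 95% interval from −1.23 to 0.40 (adjusted p 0.33). Within the libraries where long transcripts were higher it was −0.13, and within the others −0.11. It was 0.00077 once length and GC trends were removed (adjusted p 0.997), and −0.70 with an adjusted p of 0.0023 when the mitochondrial share of each library was a covariate. The part of these library differences in the result was not tested.

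**Figure D2:**
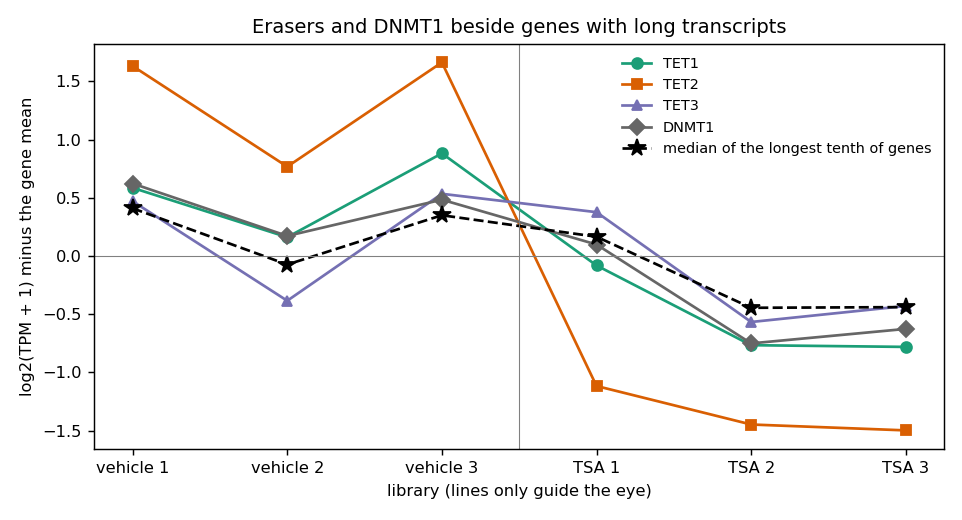
log2(TPM + 1) minus the mean of the gene in each of the 6 libraries for TET1, TET2, TET3 and DNMT1, with the median over tested genes with transcripts of 6955 nt or more as stars. TET3 follows the stars, which run from 0.41 in vehicle library 1 to −0.44 in TSA libraries 2 and 3, while TET2 steps down between the groups.

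By TPM, TET3 was the most abundant eraser transcript in every library, and its share of the family was greater in TSA. That share of the summed TPM of TET1, TET2 and TET3 was 48.3%, 46.1% and 47.0% in vehicle and 78.4%, 77.0% and 79.5% in TSA, close together within each group although the levels were not. The rise was 31.2 percentage points (two-sided exact permutation p = 0.1, the smallest possible). The share of TET2 went from 33.4% ± 1.26 to 5.13% ± 0.518 (SD, n = 3). The summed TPM of all 3 was 35.7, 19.7 and 38.4 in vehicle and 20.5, 10.2 and 11.03 in TSA, so that vehicle library 2 and TSA library 1 overlapped. Recovered reads, which are not scaled by gene length, put TET2 slightly above TET3 in every vehicle library. They numbered 1364, 658 and 1480 for TET2 and 1315, 652 and 1461 for TET3. The order of TET3 and TET2 in vehicle thus depends on the scaling by length.

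**Figure D3:**
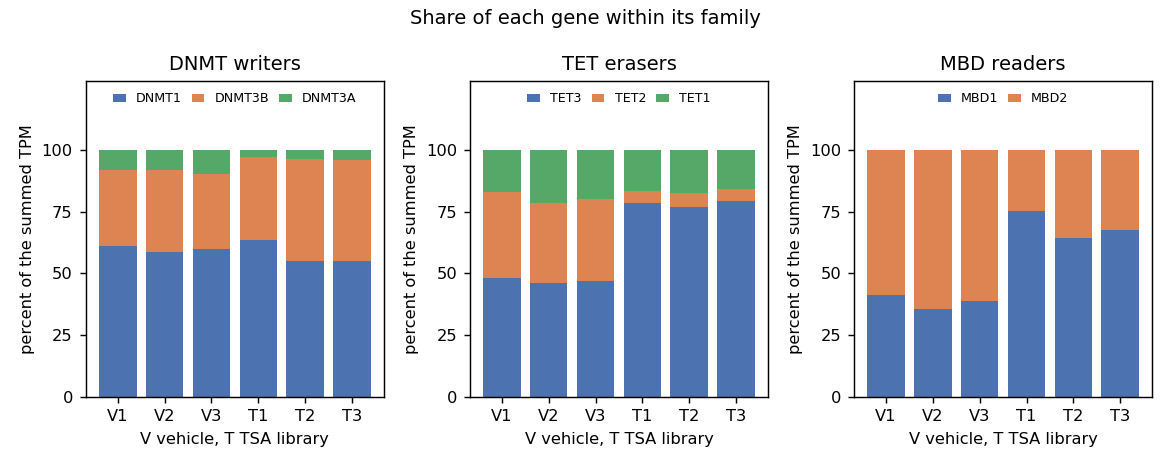
Percent of the summed TPM of a family taken by each gene, for vehicle libraries V1 to V3 and TSA libraries T1 to T3. In TSA libraries TET3 takes 77.0% to 79.5% of the TET sum and MBD1 takes 64.3% to 75.4% of the MBD sum.

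MBD1, a reader that binds both methylated and, through a CXXC zinc finger, unmethylated CpG, was the member that rose. It stood at 80.6, 68.7 and 68.1 TPM in vehicle and at 193, 118 and 134 TPM in TSA. TSA library 1 was the highest, and all 3 were above every vehicle library. The mean rose from 72.5 ± 7.04 to 148 ± 39.5 TPM, a 2.04-fold difference (log2 fold change 0.99, SE 0.19, adjusted p 0.0036). The difference was 1.37 among the libraries where long transcripts were higher and 0.86 among the others.

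MBD2, the methyl-CpG subunit of the NuRD deacetylase complex, moved the other way. It was at 114, 124 and 108 TPM in vehicle and at 63.1, 65.5 and 63.5 TPM in TSA, the tightest TSA group of the 9 by SD relative to its mean. The mean fell from 115 ± 7.90 to 64.0 ± 1.29 TPM (log2 fold change −0.84, SE 0.085, adjusted p 0.00020). By TPM the order of the readers turned over, with MBD1 at 35.7% to 41.4% of their summed TPM in vehicle and at 64.3% to 75.4% in TSA. The order in vehicle depends on the scaling by length. By recovered reads MBD1 was above MBD2 in vehicle library 1, at 3626 against 3587. It was below MBD2 in vehicle libraries 2 and 3, at 2907 and 3249 against 3651 and 3593.

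**Figure D4:**
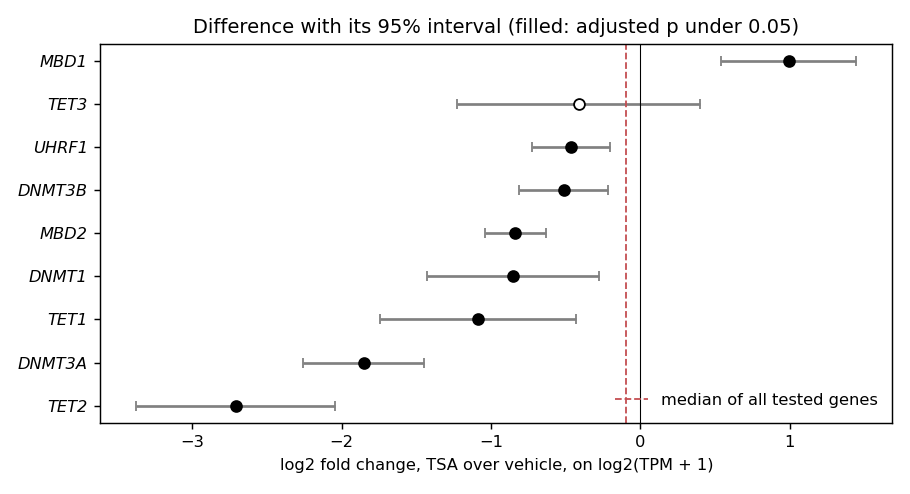
log2 fold change on log2(TPM + 1), TSA over vehicle, for each of the 9 genes with its 95% interval (filled points passed an adjusted p of 0.05). TET2 at −2.71 and DNMT3A at −1.85 lie farthest to the left, MBD1 at 0.99 lies to the right, and the interval of TET3 spans 0. The dashed line is the median of all tested genes, −0.095.

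On the TPM scale, which is per length, the order of levels in vehicle was MBD2, DNMT1, MBD1, DNMT3B, UHRF1, DNMT3A, TET3, TET2 and TET1. The ranges over libraries overlapped between MBD2 and DNMT1, among DNMT3A, TET3 and TET2, and between TET2 and TET1, so those neighbours were not separated by their spread over libraries. Within each vehicle library, however, TET3 was above TET2 by TPM, though not by recovered reads, and TET2 was above TET1. In TSA the order was MBD1, MBD2, DNMT1, DNMT3B, UHRF1, TET3, DNMT3A, TET1 and TET2. There the neighbours MBD2 and DNMT1, and DNMT3A and TET1, overlapped. In the authors' deposited table, made with a likelihood ratio test, 7 of the 9 had an FDR under 0.05. So did 41.3% of its 31814 genes. Those include genes below the filter that all members passed, so the 2 shares are not like for like. TET2 had a log2 fold change of −3.84 there, DNMT3A −2.07, TET1 −1.33 and MBD1 1.08.

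Other genes of the pathway were taken from 8 lists, of which 121 of 124 entries matched the table and 100 were tested. The counts of each list stand beside 34.2% lower and 28.0% higher over all tested genes. Partners of the writers were mostly lower, with 5 of 9 tested lower, 1 higher and a median log2 fold change of −0.80. USP7, a deubiquitinase that stabilises DNMT1 and UHRF1, fell from 182 ± 19.3 to 59.8 ± 12.6 TPM. HELLS, a chromatin remodeller needed for DNA methylation, fell from 26.2 ± 3.47 to 12.2 ± 3.35 TPM, and its partner CDCA7 from 83.4 ± 7.81 to 35.8 ± 2.76 TPM. DNMT3L, the cofactor without catalytic activity, was below the filter and listed at 0 in every vehicle library.

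Genes of replication and proliferation, with which DNMT1 and UHRF1 are known to be expressed, were mostly lower as well. Of 18 tested, 11 fell and 1 rose, with a median log2 fold change of −0.71. The log2 fold change was −2.45 for TYMS, −2.72 for PLK1 and −3.46 for MKI67. The replication helicase genes MCM2 and MCM7 were at −0.87 and −1.42, while MCM4 and MCM6 did not pass the test at −0.23 and −0.30. PCNA, CCNE2 and CDT1, at −0.56, −0.26 and −0.35, and CDC6, at 0.37, did not pass either. CCNE1 was the gene that rose, by 0.85 (adjusted p 0.00059 with limma). The part of cell division in the levels of DNMT1 and UHRF1 was not tested, and fewer cells in a phase and less RNA per cell cannot be told apart in bulk RNA.

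Genes of oxidation and base excision, which finish the removal that the TET enzymes start, moved both ways. Of 18 tested, 8 were lower and 6 higher, with a median of −0.34, beside 34.2% lower and 28.0% higher over all tested genes. Scaling by median of ratios made it 6 and 6. TDG, the glycosylase that excises oxidised methylcytosine, fell from 81.8 ± 2.07 to 34.4 ± 1.98 TPM. NEIL3 fell from 46.5 ± 2.66 to 10.96 ± 2.77 TPM, and NEIL2, another glycosylase, rose from 8.27 ± 0.747 to 34.5 ± 3.23 TPM. GADD45B, a stress gene linked to demethylation, rose by 2.58 on the log2 scale. IDH1 and IDH2, which make a co-substrate of the TET enzymes, went apart, IDH1 from 43.2 ± 3.73 to 87.5 ± 7.36 TPM and IDH2 from 255 ± 29.5 to 66.2 ± 8.62 TPM.

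The list of other readers also took in genes of proteins with an MBD domain, and binding to methylated CpG was not a condition. No gene of it was called higher. Of 11 tested, 5 were lower and 0 higher with limma, as with voom on recovered reads, and 0 were higher at an unadjusted p under 0.05. The median was −0.64, and −0.25 after removal of length and GC trends. MBD3, the alternative to MBD2 in NuRD, fell from 36.7 ± 2.32 to 17.5 ± 2.73 TPM. The zinc finger reader ZBTB33 (Kaiso) fell from 105 ± 8.15 to 38.3 ± 4.41 TPM and ZBTB38 from 4.87 ± 0.806 to 0.596 ± 0.155 TPM.

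Transcripts for the complex that MBD2 and MBD3 join were mostly lower, and the complex itself was not measured. Of 13 NuRD genes 10 fell and 1 rose, with a median of −1.10, and after removal of length and GC trends 7 fell and 1 rose, with a median of −0.65. CHD3, a remodelling ATPase, fell from 78.9 ± 24.0 to 4.93 ± 1.10 TPM, and the neuronal CHD5 from 16.5 ± 6.01 to 3.19 ± 1.25 TPM. CDK2AP1, a small subunit, fell from 205 ± 27.7 to 15.0 ± 3.04 TPM. CHD4, the main ATPase by level, was at 213 ± 44.3 and 168 ± 63.1 TPM and did not pass the test, and HDAC1 was the subunit that rose, by 0.77 on the log2 scale.

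Genes of proteins with a CXXC finger, a domain that binds unmethylated CpG, were lower in 5 of 8 cases and higher in 1, with a median of −0.76. The count of lower genes was 3 without vehicle library 1, vehicle library 3, TSA library 2 or TSA library 3. It was also 3 with mitochondrial genes removed, 6 with length and GC trends removed, and 0 with the length slope as a covariate. CXXC4, which restrains TET2 protein, fell from 27.4 ± 6.92 to 3.35 ± 0.282 TPM. FBXL19 fell from 17.5 ± 1.93 to 3.89 ± 0.161 TPM and the histone demethylase KDM2B from 18.98 ± 0.922 to 8.06 ± 0.410 TPM. KMT2B has 2 rows of the same symbol in the table, so its value is uncertain.

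**Figure D5:**
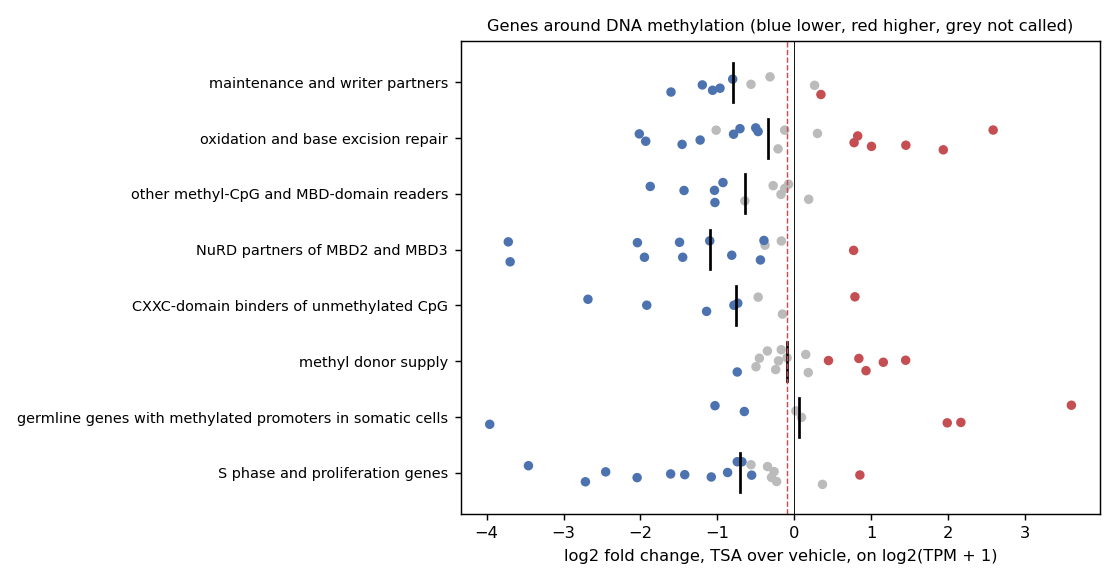
log2 fold change of each tested gene of the 8 lists (blue lower, red higher, grey not called), with the median of the list as a black bar, 0 as a solid line and the median of all tested genes, −0.095, as a dashed line. The median of the NuRD partners, −1.10, lies farthest to the left.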

How the data were processed

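Polyadenylated RNA from 3 vehicle and 3 TSA libraries was sequenced with a stranded kit, per the labels' protocols. Without giving roles, the notes of the submitters on processing list edgeR, featureCounts, Picard 1.127, STAR 2.5.3a and FastQC 0.11.2, and the build hg19. The table name gives GENCODE 19. Whether counting used strand is not given in the sources, so an antisense partner such as TET2-AS1 cannot be told apart from its gene.

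The authors deposited TPM per gene and library. Their comparison table holds log2 fold changes, a likelihood ratio score, and a p-value and FDR per gene, per the file headers. Its positive sign means higher in TSA, as for 97.1% of tested genes by TPM. Whole reads were recovered from ratios of TPM for 100% of 27644 genes above 0 in at least 2 libraries (relative tolerance 1e-09), as the smallest whole numbers that fit.

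Main test: limma 3.58.1 (R 4.3.3, eBayes with trend) on log2(TPM + 1), genes that reached 1 TPM in 3 libraries or more, two-sided, Benjamini-Hochberg over 17596 genes, threshold 0.05, checked on simulated data. Shares were compared by exact permutation. Alternatives were pseudocounts of 0.1 and 0.5, no filter or 5 TPM, other scalings and variance models, a replicate block, left-out libraries, mitochondrial genes removed, length and GC trends removed (GENCODE 29, 97.5% of tested genes) and voom on recovered reads. Added after seeing the data were covariates for the length slope and the mitochondrial share of each library. Members and lists were chosen with earlier results of these data known. Named were all members, up to 3 genes per list with the greatest change past the test (the 2 of highest mean TPM where fewer than 2 passed), the 2 genes nearest in profile to each called member, and cell type markers. Further list genes named in the text, such as TDG, IDH1, IDH2, CHD4, HDAC1, MCM2, MCM4, MCM6 and MCM7, were chosen after their values were seen. Figures used matplotlib 3.10.9. BHMT2, ASZ1, SYCE1 and PECAM1 were not analysed here, and some list genes are not reported here.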

Additional observations from a re-analysis of the deposited data

How the results depend on the processing

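Over 21 alternatives (20 for TET1, which was not tested under the filter of 5 TPM) the members kept the direction of their log2 fold change, except TET3, which was at 0.00077 with length and GC trends removed. Of the members tested 6 to 7 were lower and 1 higher under 19 of them, and 8 were lower with the mitochondrial share as a covariate. With the slope of each library against transcript length as a covariate, 0 members were lower and 0 higher with limma (3 and 0 at an unadjusted p under 0.05), over all genes 849 were lower and 731 higher, against 6013 and 4929, and of the list entries 6 were lower and 2 higher, against 48 and 18. That slope was positive in all vehicle libraries and negative in all TSA libraries, so it cannot be told apart from the treatment. Leaving out each library in turn gave 6 to 7 lower members and 1 higher, 5157 to 6585 lower genes and 4289 to 4977 higher genes. On recovered reads, which are not scaled by gene length, the share of DNMT3B rose by 17.1 and that of TET3 by 36.5 percentage points. Of called genes 45.0% were higher, 50.1% under a median-of-ratios scaling and 50.4% under quantile normalization.

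The replicate number as a block gave 7 lower members and 1 higher, with 6848 lower and 5637 higher genes over the table, and TET3 did not pass (adjusted p 0.10). Of the methyl donor genes 4 were lower and 5 higher with the block, against 1 and 5. Libraries of the same number deviated together for numbers 1 and 2 (correlation 0.63 and 0.59) but not for number 3 (−0.073). Deviations were taken from the mean of the group, so these correlations depend on each other. The labels do not say whether libraries of the same number share a culture or batch, and this was not tested. At 62 to 119 recovered reads for TET2 and 114 to 232 for TET1 in TSA, depth limits the precision of these low levels.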

Other observations

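Among 15 tested genes that supply the methyl donor, 5 were higher, 1 lower and 9 did not pass the test. Of all tested genes 28.0% were higher and 34.2% lower. The median log2 fold change of the donor genes was −0.095. It was 0.02 when scaled by median of ratios and 0.07 with quantile normalization. The counts depended on the setting, with 4 lower and 4 higher without TSA library 1 and 5 and 5 with the mitochondrial share as a covariate. MAT2A, which makes the methyl donor S-adenosylmethionine outside the liver, averaged 255 ± 88.4 TPM without and 181 ± 70.4 TPM with TSA (SD, n = 3) and did not pass the test (adjusted p 0.25). Its liver counterpart MAT1A was listed at 0 in every vehicle library and at 1.75 ± 0.389 TPM in TSA, so it entered the test only through the TSA libraries. Of the 14 genes with a mean of at least 1 TPM in vehicle, 4 were higher and 1 lower. GNMT, which consumes the donor, rose from 1.15 ± 0.686 to 3.64 ± 0.560 TPM, and AHCYL2 rose from 14.9 ± 2.63 to 29.1 ± 4.31 TPM.

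Germline genes whose promoters are commonly methylated in somatic cells stayed mostly near 0. Of 23 matched, 15 were below the filter. Among the 8 tested 3 were higher and 3 lower, beside 28.0% and 34.2% of all tested genes. Their median log2 fold change was 0.056, and −0.059 with length and GC trends removed. A gene under 1 TPM in every vehicle library could enter the test only by reaching 1 TPM in all TSA libraries, as did MAGEA4, at 0.115 ± 0.0749 and 4.10 ± 1.33 TPM. MAGEB2 rose from 1.38 ± 1.11 to 25.6 ± 4.92 TPM, and TEX101 fell from 30.1 ± 4.08 to 0.995 ± 0.158 TPM. MAGEA3 and MAGEA6 were high in both groups, at 241 ± 28.5 and 254 ± 40.7 TPM in vehicle. They are near-identical copies, so reads may be split between them.

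The neighbours of MBD1 on the same strand within 2000 bases in GENCODE 29 were also higher. CXXC1 rose from 56.4 ± 3.43 to 98.7 ± 13.6 TPM (log2 fold change 0.79, adjusted p 0.0013) and CFAP53, CCDC11 in the table, from 1.20 ± 0.428 to 5.85 ± 0.638 TPM (log2 fold change 1.65, adjusted p 0.00033). Whether reads of 1 of these genes reach the next was not tested.

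The nearest profiles were found by Euclidean distance of mean-centred log2(TPM + 1) over the 6 libraries among 14066 other genes with a plain symbol. GINS3 was nearest to MBD2 at a distance of 0.039, and KIF14 was nearest to TET2 at 0.20, the smallest and the greatest distance among the nearest genes. PXDN was nearest to DNMT1, SKIDA1 to DNMT3A, SREBF2 to DNMT3B, KLK1 to UHRF1, TMEM131 to TET1 and SMYD4 to MBD1, at distances of 0.083, 0.11, 0.097, 0.079, 0.13 and 0.11. The second nearest were ZSWIM5, MPPED2, UQCC1, TRAM2-AS1, ROBO1, TNS3, DHX34 and ELP6, in the order DNMT1, DNMT3A, DNMT3B, UHRF1, TET1, TET2, MBD1 and MBD2.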
